A study of Rattus norvegicus with 24 samples.

Results

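Mki67, Cdk1, Pcna and Cdkn1a are 4 of the 18056 genes in the deposited tables, and were chosen by their Ensembl IDs. The IDs are ENSRNOG00000028137 (Mki67), ENSRNOG00000000632 (Cdk1), ENSRNOG00000021264 (Pcna) and ENSRNOG00000000521 (Cdkn1a). The tables carry no symbols, and the names are those given with the choice of the IDs. All 4 were present in both tables and passed the filter on low counts in every fit.

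Livers came from rat offspring aged about 48 days whose dams had been kept in filtered air, or in ozone at 0.8 ppm, for 4 hours on gestation days 5 and 6. The 4 groups held 6 animals each: males of air-exposed dams, males of ozone-exposed dams, females of air-exposed dams and females of ozone-exposed dams. Sex stands under a tag named for genotype, and no strain, allele, dam or litter is given for an animal. All 24 offspring had also breathed ozone themselves, weekly at 5, 6 and 7 weeks of age, first at 0.4 ppm and then at 0.8 ppm. No group without that later exposure is part of the comparisons, and the dams numbered 12 per exposure. PolyA-selected RNA of each liver was sequenced, and the values are estimated counts per gene. Levels are given in CPM, counts scaled to a common library size after TMM, the trimmed-mean correction of library composition.

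The genes mark different steps of the cell cycle. Pcna encodes the sliding clamp that holds DNA polymerase on its template in S phase, and the protein also serves in DNA repair, so its mRNA is made in many cells that do not divide. Cdk1 encodes the kinase that drives entry into mitosis, and Mki67 a protein of cycling cells that coats mitotic chromosomes and is absent from resting ones. Cdkn1a encodes p21, an inhibitor of cyclin-dependent kinases that is induced by p53 and by other stress signals, and that can also bind the PCNA clamp. Hepatocytes of the adult liver divide rarely, while the liver of an adolescent rat is still growing. In whole liver, a lower level from fewer dividing cells cannot be told apart from less mRNA per cell, nor hepatocytes from other dividing cells. Because the IDs could not be paired with symbols, the liver label was not checked against hepatocyte markers, and markers of Kupffer, endothelial or blood cells were not examined.

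The promoters of Mki67, Cdk1 and Pcna are shown because the first pair varied together between animals. No pair with Pcna passed the permutation test of co-variation over the 24 libraries. The pairs of Cdkn1a with Mki67 and with Cdk1 did pass (r = 0.66 and 0.65). Whether the motifs bear on co-variation was not tested. Each line gives the 250 bases upstream of a RefSeq start site in build GRCr8, read 5′ to 3′ on the gene's strand. Capitals mark 3 kinds of motif, found on either strand. They are TTTGAA, a form of the cell cycle homology region bound by the DREAM and MuvB complexes, CCAAT, the site of NF-Y, and TTTCGCGC, a form of the E2F site. The windows are chr1:199952594-199952843 on the minus strand for Mki67, chr20:19265043-19265292 on the plus strand for Cdk1 and chr3:139955821-139956070 on the minus strand for Pcna.
Mki67: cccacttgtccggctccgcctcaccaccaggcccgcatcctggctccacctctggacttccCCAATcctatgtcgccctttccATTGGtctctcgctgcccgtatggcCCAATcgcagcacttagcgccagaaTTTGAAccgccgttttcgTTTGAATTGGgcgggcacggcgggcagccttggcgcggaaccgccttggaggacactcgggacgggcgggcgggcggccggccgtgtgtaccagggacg
Cdk1: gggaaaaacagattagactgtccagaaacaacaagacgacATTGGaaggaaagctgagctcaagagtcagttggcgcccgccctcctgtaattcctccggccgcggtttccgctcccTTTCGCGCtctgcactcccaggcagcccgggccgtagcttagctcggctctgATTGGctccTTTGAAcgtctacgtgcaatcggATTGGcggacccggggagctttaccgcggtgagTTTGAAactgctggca
Pcna: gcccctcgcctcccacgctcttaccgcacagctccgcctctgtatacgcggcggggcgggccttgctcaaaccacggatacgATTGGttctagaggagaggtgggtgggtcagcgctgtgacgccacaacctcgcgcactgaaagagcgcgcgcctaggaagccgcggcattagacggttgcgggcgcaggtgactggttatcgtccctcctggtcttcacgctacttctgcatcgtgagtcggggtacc

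The Mki67 window held 2 matches to TTTGAA and 4 to CCAAT, and the Cdk1 window held 2 and 3. In Mki67 the matches to TTTGAA began 117 and 99 bases before the start, the second sharing its last base with a CCAAT match that reads as ATTGG on this strand. In Cdk1 they began 72 and 16 bases before the start, and TTTCGCGC stood 133 bases before it. Pcna held 1 match to CCAAT and none to TTTGAA. Among 33469 rat promoters of the same length, 16.2% held TTTGAA, 34% CCAAT and 0.248% TTTCGCGC. TTTGAA together with CCAAT was found in 5.87% of them. At least 2 matches to TTTGAA with a CCAAT, as the Mki67 and Cdk1 windows hold, were found in 0.666%. That combination follows what these windows hold, so its share is a description and no test of rarity. GC made up 66%, 57.6% and 63.6% of the Mki67, Cdk1 and Pcna windows, against a median of 51.2% over all promoters. The forms TTTAAA, TTTGGCGC, TTTCCCGC and TTTGGCGG had no match in any of the 4 windows, against 12.3%, 0.412%, 0.813% and 0.385% of all promoters. The Cdkn1a window had a match to the p53 half-site 201 bases before the start, and 6.64% of all promoters had at least one. These are matches of letters in a window and not measured sites.

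Library totals lay between 8462290 and 14564662 estimated counts in 23 of the 24 libraries, and replicate 6 of the females of ozone-exposed dams had 36232072. Without that library the female log2 fold changes were -0.39 for Mki67, -0.27 for Cdk1, 0.41 for Pcna and -0.40 for Cdkn1a, and none of them passed. In single libraries the counts of the 4 genes ran from 16 for Cdk1 to 1186 for Pcna. Names of the libraries have 2 forms, taken here as library sets. Each group of air-exposed dams had 3 libraries in set 1 and 3 in set 2, and each group of ozone-exposed dams 2 and 4. Levels are compared within a gene and not between genes, because no transcript lengths were used.

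Pcna had the clearest pattern of the 4 genes. In livers from air-exposed dams it was higher in males than in females without overlap. It fell with maternal ozone in males, the female value had the other sign without passing, and the sexes overlapped among offspring of ozone-exposed dams. Males of air-exposed dams had 40.5 CPM at the lowest, 48.8 at the median and 59.7 at the highest, with a mean of 49.1 ± 8.14 (SD, n = 6). Females of air-exposed dams had 22.8, 29.6 and 34.8 CPM, with a mean of 28.5 ± 4.50 (SD, n = 6). Every one of these 6 males was above every one of the 6 females. The fitted male level was 1.72-fold the female one, a log2 fold change of 0.78 ± 0.12 SE (95% interval 0.53 to 1.04; edgeR adjusted p = 1.55e-05). Differences between the sexes were common in these livers. Of all tested genes, 51.5% passed the same test, and 26.7% showed no overlap between the groups. With 1 of the 4 genes called and not overlapping, their share is below the former and near the latter.

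**Figure D1:**
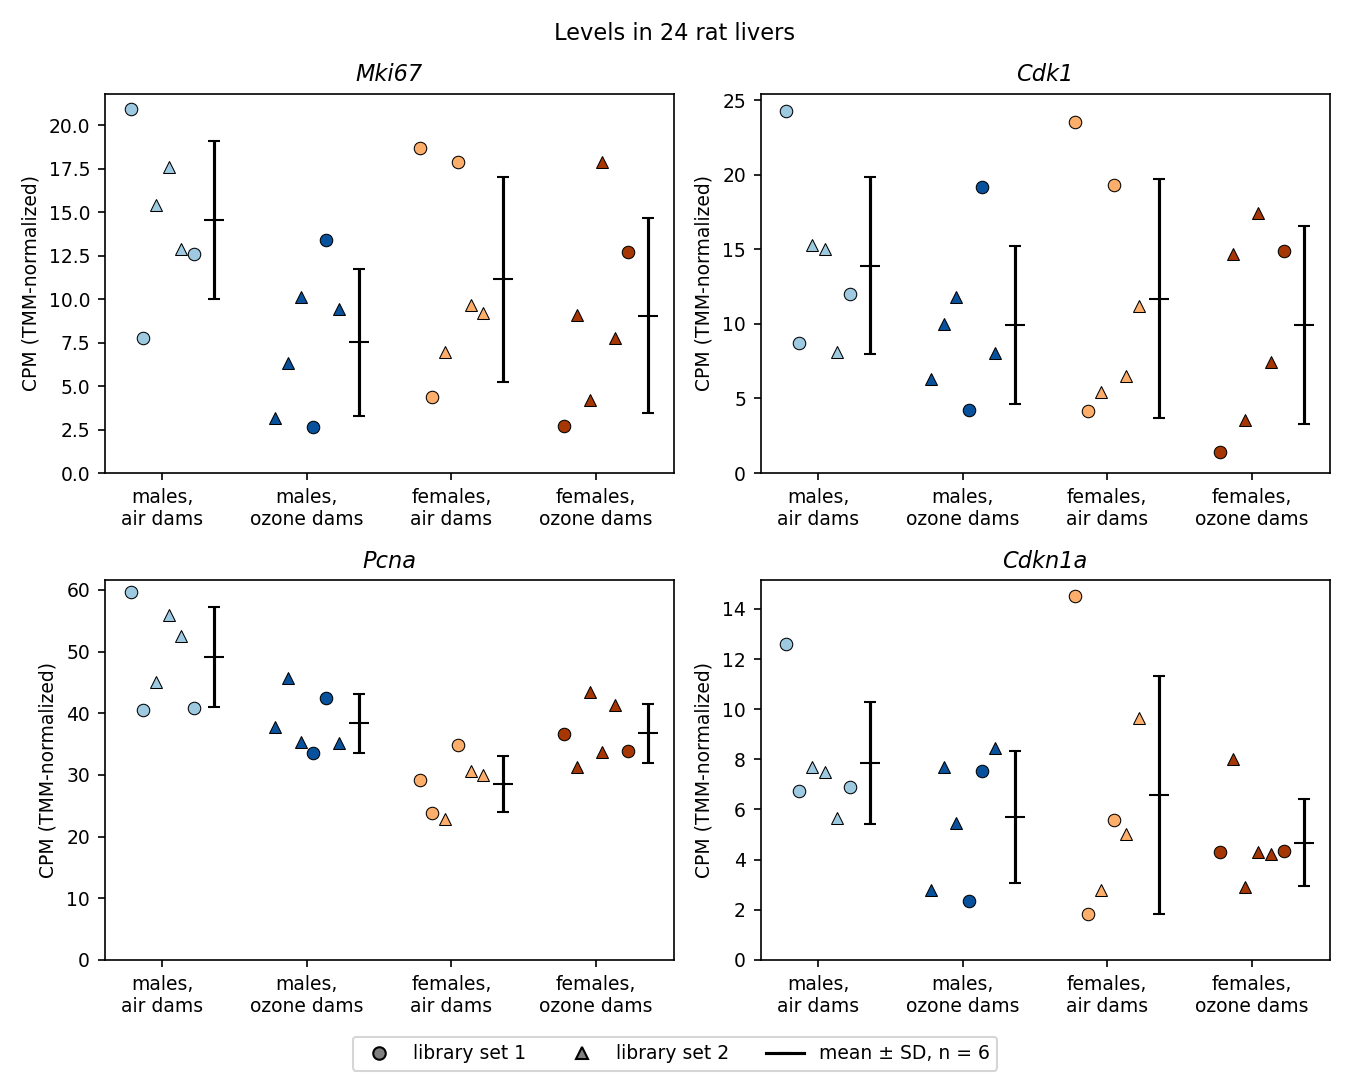
CPM of each gene in each of the 24 libraries by group (circles, library set 1; triangles, library set 2), with the mean and SD of 6 libraries as a bar beside them; axes start at 0. Pcna in males of air-exposed dams (40.5 to 59.7 CPM) lies wholly above females of air-exposed dams (22.8 to 34.8 CPM), while the other 3 genes overlap between all groups.

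Among offspring of ozone-exposed dams the Pcna levels of the sexes overlapped almost fully. Males had 33.6, 36.6 and 45.8 CPM at the lowest, median and highest (mean 38.4 ± 4.75 SD, n = 6), and females 31.3, 35.3 and 43.4 (mean 36.8 ± 4.73 SD, n = 6). The fitted log2 difference of males from females was 0.06 ± 0.12 SE, with a 95% interval of -0.19 to 0.31 (edgeR adjusted p = 0.851), against a background of 5.76% of genes called and 3.80% without overlap. The groups thus ran, from high to low, males of air-exposed dams, males of ozone-exposed dams, females of ozone-exposed dams and females of air-exposed dams. Of the 3 neighbouring steps in that order, only the first passed its test.

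In males, Pcna fell with maternal ozone by 0.37 on the log2 scale ± 0.12 SE, or 1.29-fold (95% interval -0.63 to -0.10; edgeR adjusted p = 0.0453). Of the 6 males of ozone-exposed dams, 6 lay below the median of the males of air-exposed dams and 4 below the lowest of them. The groups overlapped, as in all but 5.13% of genes. Some 21.3% of tested genes passed in males, so a single call among 4 genes is near the background. The comparison shares the 6 males of air-exposed dams with the sex difference above. The call was at the edge of the threshold. It was lost without replicate 1, 4 or 5 of the males of air-exposed dams, and without replicate 1, 3, 4, 5 or 6 of the males of ozone-exposed dams. The log2 fold change stayed between -0.42 and -0.29 over all 12 such fits, and the adjusted p lay between 0.0159 and 0.117. Within library sets it was -0.32 ± 0.21 SE in set 1 and -0.39 ± 0.15 SE in set 2 (adjusted p = 0.379 and 0.196 with edgeR).

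In females, Pcna had a fitted log2 fold change of 0.38 ± 0.13 SE with maternal ozone (95% interval 0.10 to 0.65), which did not pass after adjustment over all genes (edgeR adjusted p = 0.190). None of the 6 females of ozone-exposed dams lay below the median of the females of air-exposed dams, and 3 lay above the highest. An exact two-sided permutation test of log2 CPM over all arrangements of the animals gave p = 0.0130 in females and p = 0.0216 in males, without adjustment. The arrangements took no account of library set. For comparison, edgeR's p before adjustment was under 0.05 for 2001 of 12538 genes in females and 4393 of 12541 in males. Only 0.271% of genes passed in females and 1.52% showed no overlap, and 5.69% of the tested genes had a smaller p than Pcna.

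The maternal difference in Pcna itself differed between the sexes. The male difference minus the female one was -0.72 ± 0.17 SE on the log2 scale (95% interval -1.08 to -0.36; edgeR test of the interaction over 24 libraries, adjusted p = 0.00484). This test was passed by 23.3% of all genes, so the single call among the 4 genes, that of Pcna, is near the background. The call held with each of the 24 libraries left out in turn (-0.79 to -0.65, adjusted p from 0.00196 to 0.0116). Within library set 1 the value was -0.58 ± 0.31 SE and within set 2 -0.84 ± 0.23 SE, with adjusted p = 0.289 and 0.0512 from edgeR. Pcna counts were fractional in 22 of the 24 libraries, while those of Cdkn1a were whole in all and those of Mki67 and Cdk1 fractional in 4 each. How the fractions arose, and whether reads of near-identical copies enter the Pcna counts, was not tested.

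**Figure D2:**
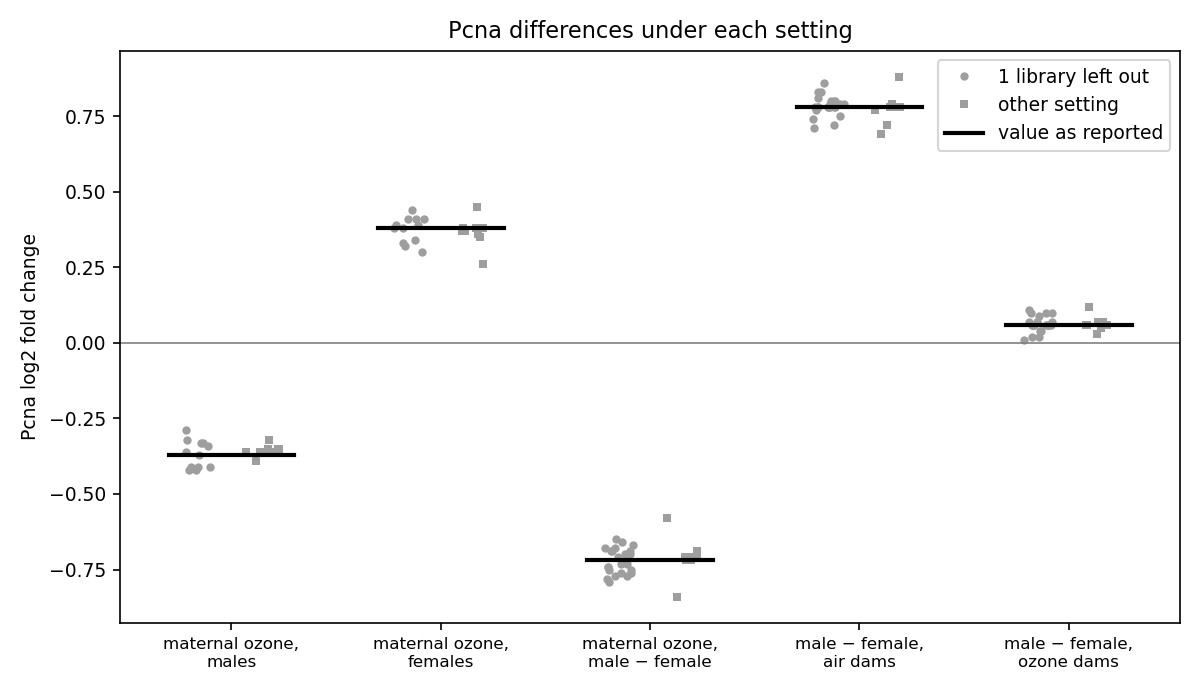
Pcna log2 fold changes for the 5 comparisons, with the reported value as a black line, fits with 1 library left out as grey circles and other settings as grey squares; the zero line is grey. Differences with maternal ozone lie below 0 in males and above 0 in females in every setting drawn, and the sex difference lies between 0.69 and 0.88 with air-exposed dams.

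Mki67, the marker of cycling cells, ranged more widely between animals of 1 group, 2.70-fold to 6.65-fold, than between any pair of group means. Males of air-exposed dams had 7.76 CPM at the lowest, 14.1 at the median and 20.9 at the highest (mean 14.5 ± 4.55 SD, n = 6). Males of ozone-exposed dams had 2.65, 7.87 and 13.4 CPM (mean 7.51 ± 4.23 SD, n = 6). Their 6 values all lay below the median of the males of air-exposed dams, and 3 below the lowest of them. The fitted log2 fold change was -0.95 ± 0.38 SE, a level 1.93-fold lower with a 95% interval of -1.77 to -0.12, which did not pass after adjustment (edgeR adjusted p = 0.0963). Of all genes tested in males, 29.4% had a smaller p.

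Whether Mki67 in males was called depended on the fit. DESeq2 gave -0.95 (adjusted p = 0.0304) and limma-voom -1.11 (adjusted p = 0.0378). Without replicate 5 of the males of ozone-exposed dams, their highest, edgeR gave -1.34 (adjusted p = 0.0342). This was the 1 call among 12 fits with a library left out. Mki67 was not called by edgeR with RLE scaling (adjusted p = 0.0979), library totals only (0.117) or no filter (0.161). Nor was it called without the term for the library set (0.0805) or in the fit of all 24 libraries (0.150). The exact permutation test gave p = 0.0260 without adjustment, beside 0.0283 from edgeR before adjustment. In library set 1 the log2 fold change was -0.79 ± 0.78 SE and in set 2 -1.04 ± 0.31 SE (edgeR adjusted p = 0.581 and 0.122).

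Females showed a like spread of Mki67 and a smaller difference. Those of air-exposed dams had 4.38, 9.43 and 18.7 CPM at the lowest, median and highest (mean 11.1 ± 5.87 SD, n = 6), and those of ozone-exposed dams 2.70, 8.41 and 17.9 (mean 9.06 ± 5.62 SD, n = 6). The groups overlapped over nearly their whole range. The log2 fold change was -0.21 ± 0.51 SE with a 95% interval of -1.32 to 0.91 (edgeR adjusted p = 0.868), which leaves room for a change as large as the male value. The test of the interaction gave -0.67 ± 0.63 SE (adjusted p = 0.468), so a difference between the sexes in the maternal change of Mki67 was not shown. From high to low, the groups ran males of air-exposed dams, females of air-exposed dams, females of ozone-exposed dams and males of ozone-exposed dams, and no neighbouring pair passed a test. The sex difference was 0.39 ± 0.44 SE with air-exposed dams and -0.28 ± 0.45 SE with ozone-exposed dams (edgeR adjusted p = 0.473 and 0.811).

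Cdk1, the mitotic kinase, had the widest spread. Males of air-exposed dams had 8.14, 13.5 and 24.3 CPM at the lowest, median and highest (mean 13.9 ± 5.91 SD, n = 6), and males of ozone-exposed dams 4.20, 9.02 and 19.2 (mean 9.92 ± 5.26 SD, n = 6). Females of air-exposed dams had 4.13, 8.87 and 23.5 CPM (mean 11.7 ± 8.01 SD, n = 6). Females of ozone-exposed dams had 1.44, 11.1 and 17.4 CPM (mean 9.91 ± 6.65 SD, n = 6), a 12.1-fold range between animals of 1 group. All 4 groups overlapped. With maternal ozone the log2 fold change was -0.44 ± 0.36 SE in males and -0.08 ± 0.66 SE in females (edgeR adjusted p = 0.409 and 0.965). The intervals, -1.22 to 0.34 and -1.56 to 1.39, both reach beyond the -0.95 seen for Mki67 in males. The male value was -0.82 without replicate 5 and -0.21 without replicate 4 of the males of ozone-exposed dams, and -0.26 without replicate 1 of the males of air-exposed dams, and passed in none of these fits. The sign of the female value changed without replicate 1 or 4 of the females of air-exposed dams (0.14 and 0.03), and without replicate 1 or 3 of the females of ozone-exposed dams (0.31 and 0.05). Neither sex difference nor the interaction passed for Cdk1 (0.28 ± 0.51 SE with air-exposed dams, -0.04 ± 0.51 SE with ozone-exposed dams and -0.32 ± 0.72 SE for the interaction). Group means were highest in males of air-exposed dams, then in females of air-exposed dams. The means of males and females of ozone-exposed dams were lower and too close to order (9.92 and 9.91 CPM, or 9.87 and 9.96 scaled by library totals only), and no neighbours were apart by more than their spread.

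Cdkn1a, the gene of the inhibitor p21, had the lowest mean count of the 4, 75.9 per library with a range from 22 to 212, and passed no test. Males of air-exposed dams had 5.66, 7.19 and 12.6 CPM at the lowest, median and highest (mean 7.85 ± 2.45 SD, n = 6), and males of ozone-exposed dams 2.37, 6.49 and 8.45 (mean 5.72 ± 2.63 SD, n = 6). Of the latter, 3 lay below the lowest male of air-exposed dams and the other 3 above their median. Females of air-exposed dams had 1.82, 5.31 and 14.5 CPM (mean 6.55 ± 4.73 SD, n = 6), and females of ozone-exposed dams 2.89, 4.31 and 8.0 (mean 4.68 ± 1.72 SD, n = 6). The log2 fold change with maternal ozone was -0.43 ± 0.32 SE in males and -0.47 ± 0.47 SE in females (95% intervals -1.11 to 0.24 and -1.49 to 0.56; edgeR adjusted p = 0.350 and 0.658). Single animals moved both values by over 1.5 times. The male value was -0.28 without replicate 1 of the males of air-exposed dams and -0.18 without replicate 4 of the males of ozone-exposed dams. The female value was -0.07 without replicate 1 and -0.22 without replicate 6 of the females of air-exposed dams. In males it was -0.84 ± 0.51 SE within library set 1 and -0.16 ± 0.31 SE within set 2 (edgeR adjusted p = 0.350 and 0.823). The interaction was 0.06 ± 0.56 SE (adjusted p = 0.954) and the sex difference 0.25 ± 0.39 SE with air-exposed and 0.30 ± 0.40 SE with ozone-exposed dams (adjusted p = 0.621 and 0.768). From high to low the group means ran males then females of air-exposed dams, and males then females of ozone-exposed dams, with neighbours that overlapped.

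**Figure D3:**
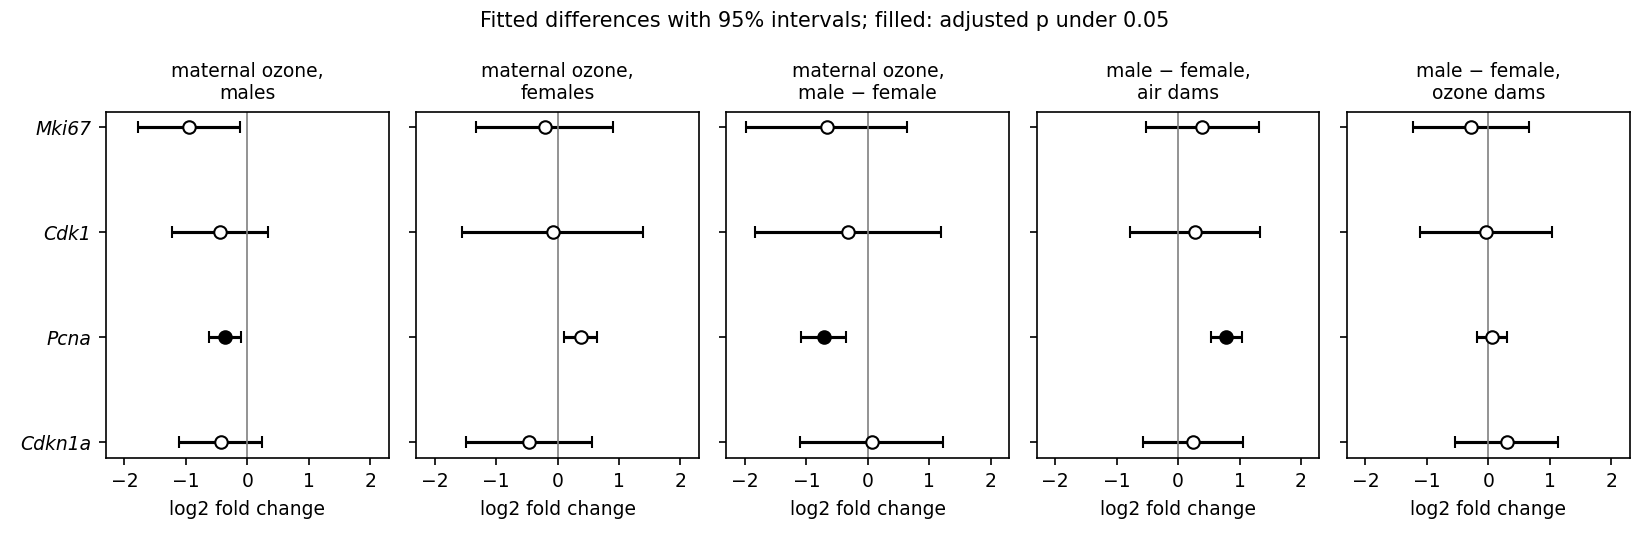
Fitted log2 fold changes of the 4 genes in 5 comparisons, with 95% intervals from edgeR; filled points passed an adjusted p of 0.05 over all genes. Pcna has the narrowest intervals and the 3 calls, while intervals of Mki67, Cdk1 and Cdkn1a cross 0 except that of Mki67 in males (-1.77 to -0.12).

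In males edgeR called 1 of the 4 genes, Pcna, against 21.3% of all genes (2670 of 12541), so their share is near the background. DESeq2 and limma-voom each called 2 of the 4, Pcna and Mki67. In all, limma-voom called 2632 of the same 12541 genes. DESeq2 called 3059 genes without that filter, and the number it tested is not given, so its calls have no share beside them. In females edgeR, DESeq2 and limma-voom called none of the 4, against 0.271% of all genes in edgeR. Before adjustment, edgeR's p was under 0.05 for Pcna alone among the 4, and for 2001 of all 12538 genes tested. The median log2 fold change of the 4 was -0.44 in males and -0.15 in females, while the median over all tested genes was 0.00 in females and within rounding of it in males. All 4 male values were negative, but the 4 genes were not independent of each other.

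The spread between animals separated Pcna from the other 3 genes. The SD of log2 CPM within groups was 0.97 for Cdk1, 0.82 for Mki67 and 0.72 for Cdkn1a, and 0.21 for Pcna. Among 9341 genes with a mean count of at least 50 the median was 0.25. Cdk1 varied more than 98.8% of these genes, Mki67 more than 98.2% and Cdkn1a more than 97.5%, while Pcna varied more than 32.5%. Counting error at their mean counts would give an SD of 0.12, 0.12, 0.17 and 0.07 for Cdk1, Mki67, Cdkn1a and Pcna. The spread between animals also holds any effect of litter, library set and preparation, which were not separated here.

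The same animals were high or low in Mki67, Cdk1 and, in part, Cdkn1a. Replicate 1 of the males of air-exposed dams was the highest of its group in all 4 genes, and replicate 1 of the females of air-exposed dams in Mki67, Cdk1 and Cdkn1a. Replicate 4 of the males of ozone-exposed dams was the lowest of its group in all 4, and replicate 2 of the females of air-exposed dams in Mki67, Cdk1 and Cdkn1a. Among females of ozone-exposed dams, replicate 4 was the highest and replicate 1 the lowest in both Mki67 and Cdk1. That lowest animal had 2.70 CPM of Mki67 and 1.44 CPM of Cdk1 but 36.7 CPM of Pcna, above its group's median.

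Mki67 and Cdk1 followed each other closely once group means were subtracted. Over the 24 libraries Pearson's r was 0.91 and Spearman's rho 0.92. The permutation p within groups was 1e-05 for both, the smallest that 100000 resamples can give (adjusted over 6 pairs, 6.00e-05). Within single groups r lay between 0.84 and 0.96, and it was 0.98 in library set 1 and 0.79 in set 2 (10 and 14 libraries). Without the 2 libraries farthest from the Mki67 median it was 0.89.

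Cdkn1a, although it encodes an inhibitor of cell division, went up and down with the mitotic genes and not against them. Its r with Mki67 was 0.66 (rho 0.68; permutation p = 0.00121 and 9.50e-04, adjusted 0.00242 and 0.0019). Its r with Cdk1 was 0.65 (rho 0.73; permutation p = 5.90e-04 and 3.20e-04, adjusted 0.00177 and 9.60e-04). Without the 2 farthest libraries the values were 0.68 and 0.74. In library set 1 they were 0.76 and 0.71, and in set 2 they were 0.56 and 0.66, where the pair with Mki67 no longer passed (adjusted permutation p = 0.141). Among females of ozone-exposed dams r was 0.30 and 0.45, and in the other 3 groups between 0.66 and 0.93.

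No pair with Pcna passed the permutation test. Its r was 0.28 with Mki67, 0.22 with Cdk1 and 0.35 with Cdkn1a (rho 0.33, 0.27 and 0.36; adjusted permutation p for r = 0.221, 0.309 and 0.196, and for rho 0.139, 0.218 and 0.139). Without the 2 farthest libraries r was 0.26, 0.19 and 0.29. The sets of libraries differed: r was 0.64, 0.55 and 0.66 in set 1, and -0.31, -0.35 and 0.03 in set 2. In the females of ozone-exposed dams it was -0.53, -0.57 and -0.80, and in the other 3 groups it was positive for each pair, from 0.32 to 0.80. With 6 animals a group these values are a description, and a difference between groups was not tested.

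**Figure D4:**
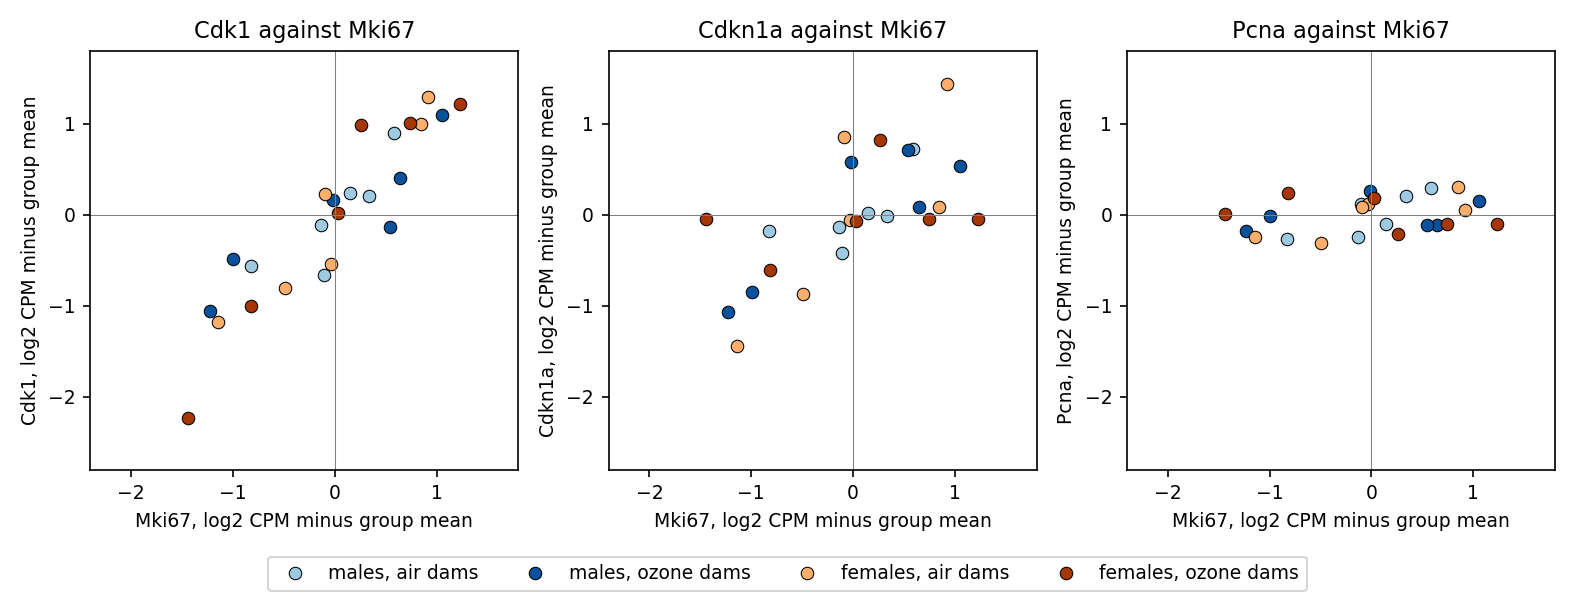
Log2 CPM minus the group mean for Cdk1, Cdkn1a and Pcna (vertical) against Mki67 (horizontal), 1 point per library, coloured by group. Cdk1 follows Mki67 closely (r = 0.91), Cdkn1a less so (0.66), and Pcna stays within a narrow band (0.28).

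Likeness to other genes over the 24 libraries was also taken after group means were subtracted, so it does not cover differences between groups. Among the 9340 other genes with a mean count of at least 50, Mki67 was most like ENSRNOG00000058539 (r = 0.92) and then Cdk1 (r = 0.91). In all, 15 genes reached r of at least 0.8 with Mki67, 20 with Cdk1, 3 with Pcna and none with Cdkn1a. The genes most like Cdkn1a were ENSRNOG00000017259 (r = 0.76) and ENSRNOG00000020288 (r = 0.74). At r of at least 0.5 there were 98, 155, 437 and 176 genes for Mki67, Cdk1, Pcna and Cdkn1a. The genes share libraries and depth, so these values describe the 24 livers and carry no test.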

How the data were processed

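Liver RNA of 24 rats was measured. The authors deposited estimated counts for 18056 Ensembl IDs, in separate male and female tables. Judged by their values, they carry no scaling for depth or length. Between 74.4% and 81.3% of a library's values were whole within 1e-09. Per the submitters' processing notes Partek, STAR 2.6.1d, build rn6 and DESeq2 were used, with no role given, and RIN values were above 7. The annotation and strand setting were not given in the sources used here, and reads of genes that overlap may be mixed. A further 23 columns had names matching no sample and were left out.

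Counts were rounded (totals changed by at most 0.00038%) and tested with edgeR 4.0.16 in R 4.3.3 (robust quasi-likelihood, TMM, filterByExpr with minimum count 10 and total 15, library set as covariate, Benjamini-Hochberg over all genes, threshold 0.05). Males and females were fitted apart (12 libraries each), and all 24 together for the interaction and sex differences. The library sets are the 2 forms of library name, and what they stand for is not given. SEs are those implied by the test statistic. Log2 CPM used a prior count of 2. No 2 libraries were identical, and replicates differed by at least 16.0 in chi-square per degree of freedom. Litter is not given, so p-values rest on animals taken as independent. Alternatives were DESeq2 1.42.0, limma-voom 3.58.1, RLE scaling, library totals only, no filter, no term for the library set, a fit within either set, the contrast taken from a fit of all 24 libraries, an exact permutation test, and each library left out. For co-variation they were centring on group and set, each set, a prior count of 0.5 and library totals.

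The genes, lists and tests were chosen with earlier results of these data known. The naming rule covers the 4 genes and the 2 genes most like Mki67 and Cdkn1a. Lists of other cell cycle genes, p53 targets and cell type markers were not examined, since 0 of the 18056 IDs matched the RefSeq table, which gave promoters for 4 of the 4 symbols. The limit set by 3 counts was 0.0828 to 0.355 CPM, for counting error only.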

Additional observations from a re-analysis of the deposited data

Results flagged for a closer look

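The Pcna difference with maternal ozone differed between the sexes by the test of the interaction, with -0.72 on the log2 scale for males minus females (edgeR adjusted p = 0.00484), and the fitted values were -0.37 in males and 0.38 in females.

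In Cdkn1a, a single library stood apart from its group in 2 of the 16 combinations of gene and group. In males of air-exposed dams replicate 1 had 12.6 CPM and the next 7.69, a gap of 0.710 of the group's range, above the critical value of Dixon's test for 6 samples. In females of ozone-exposed dams replicate 2 had 8.0 CPM and the next 4.35, a gap of 0.715. Chance alone marks about 1 in 20 groups if values are normally spread. The gaps were taken in CPM, and Dixon's test was not run on log2 CPM. Without the first, the Cdkn1a log2 fold change with maternal ozone in males was -0.28 in place of -0.43 (edgeR adjusted p = 0.540), and without the second that in females was -0.67 in place of -0.47 (edgeR adjusted p = 0.480).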

How the results depend on the processing

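The lowest count of the 4 genes in any library was 16, and how depth or the number of animals limits the calls was not tested. In males, Mki67 passed with DESeq2 (-0.95) and limma-voom (-1.11), and in none of the other settings with an adjusted p. With a library left out its log2 fold change lay between -1.34 and -0.72, and it passed in 1 of 12 fits. Pcna in males no longer passed with library totals only or without the set term (-0.35 in both; edgeR adjusted p = 0.0534 and 0.0518), nor within set 1 (-0.32) or set 2 (-0.39), where fewer animals were tested; with a library left out it lay between -0.42 and -0.29 and passed in 4 of 12 fits. In females, Mki67 and Cdk1 changed sign within set 2 (0.20 and 0.49) and ranged from -0.51 to 0.11 and from -0.31 to 0.31 with a library left out. The interaction for Pcna did not pass within set 1 (-0.58) or set 2 (-0.84), and passed in the other 6 settings. That for Cdkn1a changed sign with limma-voom (-0.27) and within set 1 (-0.06), and ranged from -0.40 to 0.29 with a library left out, and that for Cdk1 changed sign within set 1 (0.50). Of the sex differences, Cdk1 changed sign within set 1 for air-exposed dams (-0.06), and for the ozone-exposed under limma-voom (0.18), within set 1 (0.44) and with a library left out (-0.29 to 0.23), as did Mki67 (-0.53 to 0.04). Within set 2, r turned negative for Mki67 with Pcna (-0.31) and Cdk1 with Pcna (-0.35), and that of Mki67 with Cdkn1a (0.56) no longer passed. The causes were not tested. The sex difference of Pcna with air-exposed dams passed in 8 of 8 settings and with each of 24 libraries left out.

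The number of genes called moved as well. In males, 2670 genes became 861 within set 1 and 121 within set 2, 1758 without replicate 4 and 1684 without replicate 5 of the males of air-exposed dams. In females, 34 became 336 with DESeq2, 66 without the set term, 9 and 0 within the sets, and 1 in the fit of all 24 libraries, with 0 to 135 when a library was left out. For the interaction 2994 became 432 and 450 within the sets, for the sexes with air-exposed dams 6621 became 3404 within set 1, and with ozone-exposed dams 741 became 71 within set 1 and 412 within set 2. No paired analysis was possible because the replicate numbers were given in accession order and link no animals across groups.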
